A study of Mus musculus with 38 samples.

Results

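LP-specific CTCF sites were the CTCF peaks found in lymphoid progenitors (LP) that shared no base with any CTCF peak of the Notch-stimulated stage called Phase 1. There were 4333 such sites among 45388 LP CTCF peaks, or 9.55%. The other 41055 LP CTCF peaks overlapped a Phase 1 CTCF peak and are called shared. For comparison, 3738 of 44793 Phase 1 CTCF peaks overlapped no LP CTCF peak and are called Phase 1-specific. The sites were selected on the positions of CTCF peaks in both stages, so position relative to Phase 1 CTCF, CTCF peak score and the number of sites are descriptions without a test.

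Both stages came from Cas9-LP, a line made from mouse fetal liver progenitors that lack Ebf1, a factor needed for B-lineage entry, and carry Cas9 at Rosa26. LP cells were kept on OP9 stroma with SCF, Flt3L and IL-7, and Phase 1 cells spent 2 days on OP9-DLL4, a stroma that displays DLL4 to the Notch receptors. Chromatin immunoprecipitation and sequencing (ChIP-seq) was done for CTCF, RUNX1, Med12 and p300 in both stages, for Notch1-IC (the released intracellular domain of Notch1), and for RUNX1 or Med12 in cells that received guide RNAs against Ctcf, Cbfb or Med12 or a control guide (sgCont). Each group had 2 replicates that were combined by the authors into 1 list of reproducible peaks, so no value per replicate was used. The lists carry no read counts, and the study's methods give no more than an approximate number of reads per sample, so the depth of each list was not compared. Absence from a list does not show absence of the protein. Intervals and tests below count peaks, cover counting error only, and carry no error between cultures.

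CTCF is a zinc-finger protein that binds a long DNA motif and, with cohesin, anchors chromatin loops and domain borders. Much of its binding is shared between cell types, and in rodents B2 short interspersed repeats have carried copies of its motif through the genome. RUNX1 is a DNA-binding factor of blood progenitors and T cells that works with its partner Cbfb. Med12 belongs to the kinase module of Mediator, the complex that links enhancers to RNA polymerase II, and p300 is an acetyltransferase of histones. Peaks of Med12 and p300 are usual at active promoters and enhancers.

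The sequences that turned out to separate the sites are shown first. A short CTCF string, CCANNAGNNGGC (N stands for any base), was searched on both strands in the 200 bp around each peak centre. It was found at 1377 of 4332 LP-specific sites on named chromosomes (31.8%), while all LP CTCF peaks had it at 43.4%. In windows of equal size 2 kb to each side of the LP-specific sites it was found at 1.81%. A few strong LP-specific sites are shown with the Phase 1 CTCF peak that lies within 1 kb of each, as examples of pairs in which each peak carried its own copy of the string. Such pairs were a minority. Of the 237 LP-specific sites within 1 kb of a Phase 1 CTCF centre, 42 had the string anywhere in both peaks, 101 in 1 of them and 94 in neither, and of the 9 such sites among the 10 strongest, 2 had it in both. Each line gives 60 bases of mm10, read 5′ to 3′ on the strand of the string, with the string in capitals.
LP-specific site near 4930578M01Rik, chr15:98994073-98994132, minus strand: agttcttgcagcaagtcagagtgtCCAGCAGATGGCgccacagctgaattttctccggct
Neighbouring Phase 1 peak, chr15:98993175-98993234, plus strand: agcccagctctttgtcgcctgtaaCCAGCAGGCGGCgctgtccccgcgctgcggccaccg
LP-specific site near Ldhal6b, chr17:5402821-5402880, minus strand: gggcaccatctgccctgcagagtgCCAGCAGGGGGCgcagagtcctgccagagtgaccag
Neighbouring Phase 1 peak, chr17:5402233-5402292, minus strand: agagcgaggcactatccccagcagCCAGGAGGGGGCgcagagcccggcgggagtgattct
LP-specific site near Neurl1a, chr19:47168382-47168441, minus strand: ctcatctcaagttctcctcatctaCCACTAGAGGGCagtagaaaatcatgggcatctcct
Neighbouring Phase 1 peak, chr19:47169180-47169239, minus strand: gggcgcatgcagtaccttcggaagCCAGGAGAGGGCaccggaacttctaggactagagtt

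The copies of these pairs were 898 bp, 588 bp and 798 bp apart. A different set of LP-specific sites carried the string inside a B2 repeat. Examples near genes of the lists described later are shown, because repeats of this family made up most LP-specific sites with the string.
LP-specific site in Ppt2, chr17:34623334-34623393, minus strand: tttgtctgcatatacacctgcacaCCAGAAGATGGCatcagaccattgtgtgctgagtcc
LP-specific site near Flt3, chr5:147428411-147428470, plus strand: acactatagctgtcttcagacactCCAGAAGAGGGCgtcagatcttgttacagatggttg
LP-specific site in Spi1, chr2:91110599-91110658, plus strand: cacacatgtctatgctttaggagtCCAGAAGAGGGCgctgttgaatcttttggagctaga
LP-specific site near Ep300, chr15:81578384-81578443, plus strand: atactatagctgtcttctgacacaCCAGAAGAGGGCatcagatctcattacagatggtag

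Other LP-specific sites lay in GC-rich promoters without the string. The promoter of Fhl3, which encodes a LIM-domain protein, is shown as an example, with CG dinucleotides in capitals. The 250 bases before its start are from RefSeq (GRCm38.p6, the assembly of mm10), hold 21 CG dinucleotides and have a GC content of 74%. They lie wholly inside the LP-specific site at chr4:124700320-124700720.
Fhl3 promoter, chr4:124700449-124700698, plus strand: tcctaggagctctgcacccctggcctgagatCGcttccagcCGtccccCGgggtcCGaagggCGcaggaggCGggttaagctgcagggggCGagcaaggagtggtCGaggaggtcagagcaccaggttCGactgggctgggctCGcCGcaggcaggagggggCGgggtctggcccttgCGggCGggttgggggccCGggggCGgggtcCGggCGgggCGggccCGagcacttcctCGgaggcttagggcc

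Most LP-specific CTCF sites were among the weakest peaks of their list. The peak score is the authors' normalized score, whose scale was not stated, and it is used only within a list. The median score of LP-specific sites was 20.4 (quartiles 17 and 28.6, range 15 to 282.9), and that of shared sites was 75.5 (quartiles 36.4 and 148.8). The LP list was split by score into 5 classes of about 9078 peaks. The lowest class held 3081 LP-specific sites, which were 33.9% of its peaks and 71.1% of all LP-specific sites. The following classes held 819 (9.02%), 271 (2.99%), 107 (1.18%) and 55 (0.606%). Phase 1-specific sites were placed alike in their own list, with a median rank percentile of 10.9 against 10.4 for LP-specific sites in theirs. LP-specific peaks also had a lower focus ratio than shared peaks. This is the authors' fraction for how reads are placed around a peak's centre. Its median was 0.828, against 0.878 at shared and 0.829 at Phase 1-specific sites. The ratio is not a width, since every LP CTCF peak was 401 bp wide.

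**Figure D1:**
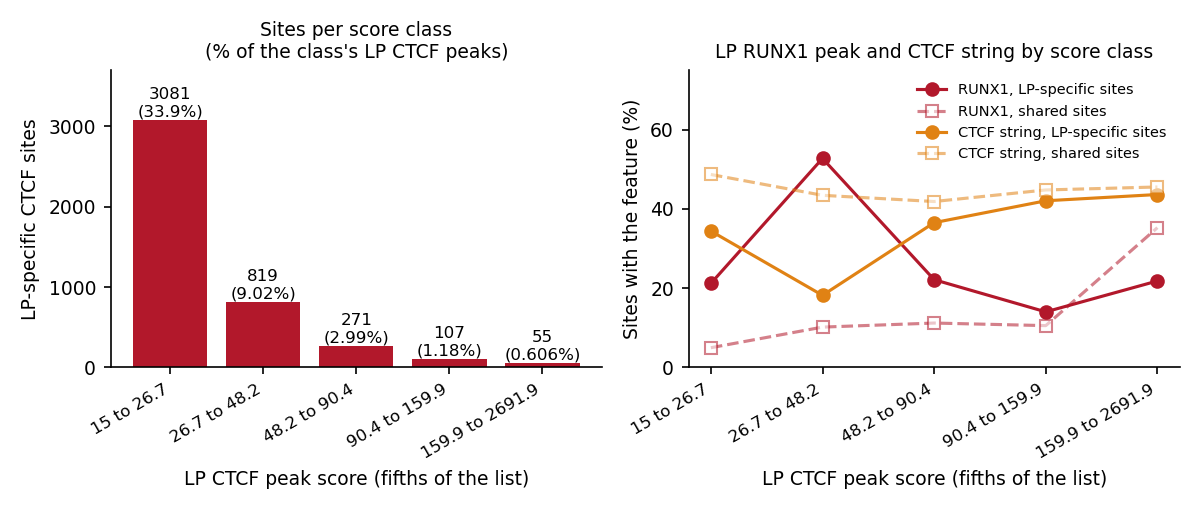
Left, the number of LP-specific CTCF sites in each of the 5 score classes of the LP CTCF list, with their share of the class's peaks in brackets. Right, the percentage of LP-specific (filled circles) and shared (open squares) sites of each class that overlapped a LP RUNX1 peak (red) or held the CTCF string (orange); LP-specific sites of the second class stood out with 52.7% RUNX1 and 18.2% string.

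The strong LP-specific sites lay close to CTCF peaks of Phase 1. Of 128 LP-specific sites with a score of at least 100, 126 (98.4%, 95% Wilson interval 94.5% to 99.6%) had the centre of a Phase 1 CTCF peak within 5 kb, and 73 (57%, 48.4% to 65.3%) had one within 1 kb. Among 3353 sites with a score under 30, these shares were 17.6% and 1.94%. Another peak of the LP list itself lay within 5 kb of 101 of the 128 strong sites (78.9%), and of 28.9% of the 16523 shared sites with scores of at least 100. In all, 237 LP-specific sites lay within 1 kb of a Phase 1 CTCF centre (median score 51.0), 1027 at 1 to 5 kb (median 29.3) and 3069 further away or alone on an unplaced contig (median 18.9).

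Peak spacing bears on the nearest group. Each LP CTCF peak was 401 bp wide, and no 2 centres of the LP list were closer than 827 bp. The closest Phase 1 centres were 768 bp apart. Of the 237 LP-specific sites within 1 kb of a Phase 1 centre, 106 were closer to it than the 827 bp that separated any pair inside the LP list. For 121 of the 237, the Phase 1 neighbour overlapped no LP CTCF peak, so the lists held 1 of a pair of nearby positions in LP and the other in Phase 1. For the remaining 116 the neighbour was in the LP list as well. Whether both positions of such a pair were bound in both stages was not tested.

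**Figure D2:**
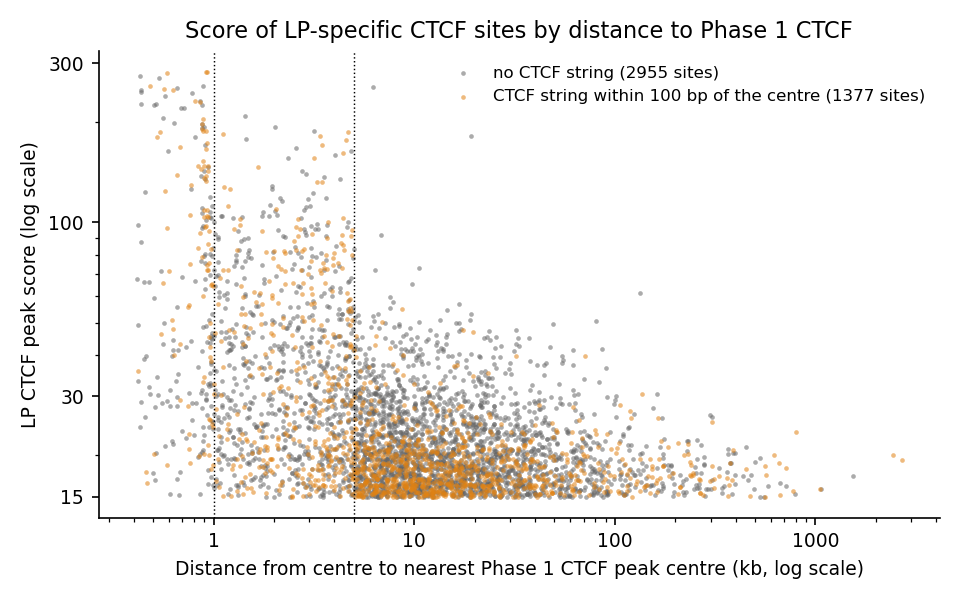
Each point is 1 of the 4332 LP-specific CTCF sites on a chromosome with a Phase 1 CTCF peak, placed by its distance to the nearest Phase 1 CTCF centre (kb, log scale) and its LP CTCF score (log scale), in orange where it held the CTCF string. Dotted lines mark 1 kb and 5 kb, and only 2 sites with a score of at least 100 lie to the right of 5 kb.

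The overlap rule itself decided few sites. The smallest gaps to a Phase 1 CTCF peak were 1 bp, at an LP-specific site in an intron of Ntn3 (chr17:24206846-24207246, score 67.5), and 4 bp, in an intron of Gse1 (chr8:120564586-120564986, score 49.3). The smallest overlaps among shared sites were 2 bases, near the start of 1110004F10Rik (chr7:116093353-116093753, score 108.7), and 8 bases, near Aldoart2 (chr12:55564550-55564950, score 35.6). A gap of 100 bp or less was found at 30 LP-specific sites and an overlap of 100 bases or less at 36 shared sites, while 40996 shared sites had at least 50% of the LP peak covered.

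The 10 strongest LP-specific sites were examined singly. The strongest, chr10:80880354-80880754 with a score of 282.9, lay in intron 1 of Tmprss9, which encodes a membrane serine protease, and 0.914 kb from a Phase 1 CTCF centre. It overlapped a p300 peak in LP and none of RUNX1 or Med12. The site at chr15:98993910-98994310 (282.7), in an exon of the noncoding transcript 4930578M01Rik, and that at chr17:5402658-5403058 (280.8), in an intron of the antisense transcript Gm29050, overlapped none of the 3 factors in either stage. The same was true of chr7:126377817-126378217 (274.7), 0.083 kb from the Spns1 start, and of chr15:78447626-78448026 (252.0), in an intron of Tmprss6, which encodes the hepcidin regulator matriptase-2.

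At chr11:99039719-99040119 (271.1), 1.33 kb before Igfbp4, which encodes a binding protein of insulin-like growth factors, RUNX1, Med12 and p300 peaks were present in both stages. The site at chr8:84186437-84186837 (256.6), 7.68 kb from the microRNA gene Mir181c, had all 3 in LP and none in Phase 1. At chr2:152363873-152364273 (257.0), in a B3 repeat of the B2 family, p300 was listed in Phase 1 only, and at chr10:94991449-94991849 (253.5) Med12 was listed in Phase 1 only. Of these 10 sites, 9 lay within 1 kb of a Phase 1 CTCF centre. The exception, chr12:113215923-113216323 (254.8), was intergenic on the 3′ side of the immunoglobulin heavy chain genes, 6.21 kb from the nearest Phase 1 CTCF centre, and had neither the string nor any of the 3 factors.

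A second list, chosen after the distances were seen, held the 10 strongest sites over 5 kb from a Phase 1 CTCF centre. The heavy chain site led it. The next was chr18:3005643-3006043 (score 181.2), in an ERVK long terminal repeat, with p300 in LP alone. Promoters of Fhl3 (score 72.7), E4f1 (chr17:24455161-24455561, 71.9), a regulator of the cell cycle, and Odc1 (chr12:17544346-17544746, 65.1), the first enzyme of polyamine synthesis, had all 3 factors in both stages. The most isolated was chr4:153627286-153627686 (61.2), 134 kb from any Phase 1 CTCF centre and 145 kb from the start of Ajap1, with RUNX1 and p300 in both stages and Med12 in LP. An intron of Yju2 (chr17:55964964-55965364, 57.6) had all 3 in LP and none in Phase 1. The remaining 3, at scores of 59.5 to 91.7, overlapped none of the 3 factors in either stage. None of these 10 held the CTCF string.

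RUNX1, Med12 and p300 were more frequent at LP-specific than at shared CTCF sites, in LP and in Phase 1 alike. LP RUNX1 peaks overlapped 1172 LP-specific sites (27.0%, interval 25.7% to 28.4%) and 15.2% of shared sites, against 16.4% of all LP CTCF peaks. For LP Med12 the shares were 27.5% (1191 sites) and 14.4%, against 15.6% of all, and for LP p300 they were 28.7% (1244 sites) and 17.4%, against 18.5%. The odds ratios were 2.06 for RUNX1 (Fisher's exact test, two-sided, adjusted p = 4.03e-78), 2.26 for Med12 (adjusted p = 1.22e-97) and 1.91 for p300 (adjusted p = 1.52e-66), with Benjamini-Hochberg adjustment over 13 tests. Pooled within the 5 score classes (Mantel-Haenszel), the odds ratios were 5.12, 5.16 and 4.98. With both CTCF lists held to a score of at least 30 they were 1.34, 1.45 and 1.21. That setting called 2297 sites LP-specific, of which 980 overlapped no Phase 1 CTCF peak of any score. Most of its sites were therefore shared in the main definition, which limits every value given below at a score of at least 30. The direction was not the same in every class: in the highest, LP-specific sites were below shared sites for RUNX1 (21.8% against 35.3%), Med12 (18.2% against 31.7%) and p300 (29.1% against 40.9%), and in the fourth class for Med12 (9.35% against 9.92%).

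Phase 1 peaks of the factors were also more frequent at these sites, where CTCF was not listed in that stage. Phase 1 RUNX1 overlapped 1083 LP-specific sites (25%, against 13.3% of all LP CTCF peaks), Phase 1 Med12 1037 (23.9%, against 12.7%) and Phase 1 p300 1074 (24.8%, against 16.5%). At Phase 1-specific CTCF sites, LP RUNX1, Med12 and p300 overlapped 21.1%, 20.7% and 22.4%, and Phase 1 peaks of the same factors 26.1%, 26.6% and 29.7%. The factor peaks at LP-specific sites were strong members of their own lists, with a median rank percentile of 68.2 for LP RUNX1, 67.0 for LP Med12 and 70.1 for LP p300. At shared sites these medians were 48.1, 51.5 and 46.6, and at Phase 1-specific sites they were 67.8, 66.1 and 68.3. The factor centres at LP-specific sites lay a median of 65 bp to 70 bp from the CTCF centre in the LP lists.

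**Figure D3:**
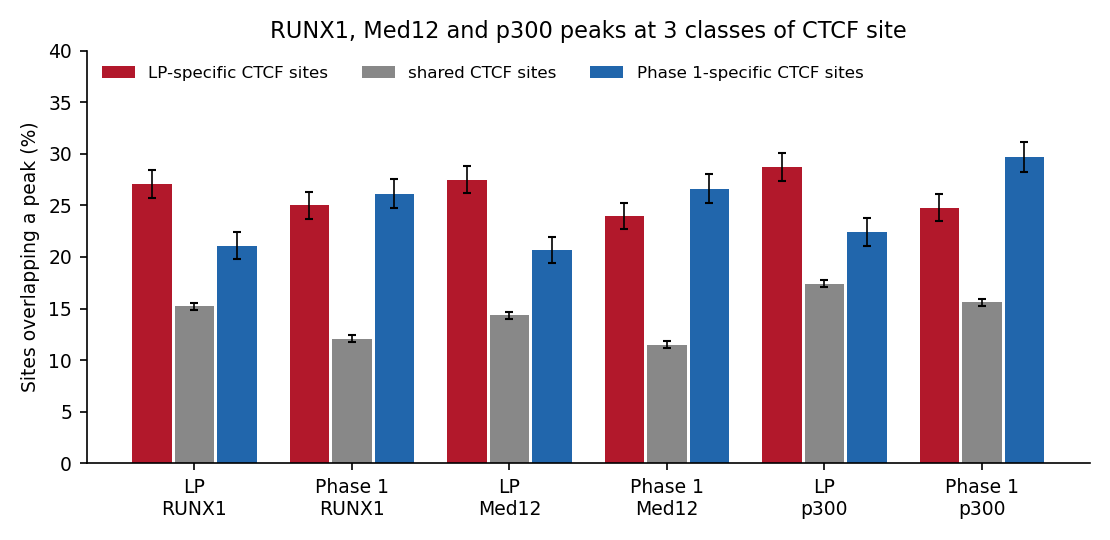
Bars give the percentage of LP-specific (red), shared (grey) and Phase 1-specific (blue) CTCF sites that overlapped a peak of each factor in LP or Phase 1, with 95% Wilson intervals of counting error as error bars. LP-specific sites lie above shared sites in all 6 lists, with 27.0% against 15.2% for LP RUNX1.

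The factors came together or not at all at most sites. All 3 of RUNX1, Med12 and p300 were listed in LP at 1111 LP-specific sites (25.6%, against 13.3% of all LP CTCF peaks), and all 3 in both stages at 938 (21.6%, against 9.77%). None of the 3 was listed in LP at 3032 sites (70.0%, against 79.1% of all), nor in either stage at 3005 (69.4%, against 76.7%). The remaining 190 sites had 1 or 2 of them in LP (4.38%, against 7.55%). At Phase 1-specific sites these shares were 76.0%, 67.3% and 5.19%.

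Most factor peaks at LP-specific CTCF sites were kept when CTCF was no longer listed. Of the 1172 with LP RUNX1, 1048 (89.4%) had RUNX1 in Phase 1 as well, against 69.3% at shared sites. For Med12 this was 1012 of 1191 (85.0%, against 68.3%), and for p300 it was 1048 of 1244 (84.2%, against 73.9%). Phase 1-specific sites kept still more of their LP peaks, 95.2% for RUNX1, 93.5% for Med12 and 94.3% for p300. Few LP-specific sites changed. RUNX1 was in LP only at 124 and in Phase 1 only at 35, Med12 at 179 and 25, and p300 at 196 and 26.

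Where a factor was listed in exactly 1 stage, that stage was usually LP. LP held 78.0% of such RUNX1 sites (124 of 159, interval 70.9% to 83.7%), which was close to the 75.4% at shared sites and to the 75.6% over all LP CTCF peaks (odds ratio 1.16, Fisher's exact test, adjusted p = 0.506). The result for RUNX1 depended on the setting. Pooling within score classes gave an odds ratio of 6.24, which passed the threshold, leaving out promoters gave 0.906, and asking that at least 50% of the CTCF peak be covered gave 0.584 (Fisher's exact test, adjusted p = 0.00163). Med12 was in LP at 179 of 204 such sites (87.7%, against 72.7% at shared sites and 73.8% over all). Its odds ratio was 2.69 (Fisher's exact test, adjusted p = 9.44e-07), but the call was lost at a score of at least 30 (1.65, adjusted p = 0.0789) and with 50% coverage (1.36, adjusted p = 0.078). For p300 the share was 88.3% (196 of 222, against 62.3% and 64.1% over all), with an odds ratio of 4.55 (Fisher's exact test, adjusted p = 1.13e-16). It was 2.49 at a score of at least 30 and 2.03 with 50% coverage, both past the threshold.

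The difference from Phase 1-specific CTCF sites was larger. There LP held 14.3% of the RUNX1 sites listed in 1 stage (38 of 265), 15.5% for Med12 (50 of 323) and 13.0% for p300 (48 of 369). Against LP-specific sites the odds ratios were 21.2 for RUNX1 (adjusted p = 4.70e-40), 39.1 for Med12 (adjusted p = 2.70e-64) and 50.4 for p300 (adjusted p = 4.03e-78, Fisher's exact tests). With 50% of the CTCF peak covered they were 10.3, 15.6 and 17.4, still past the threshold. These counts rest on the few LP-specific sites where the factor was listed in 1 stage, 159 of 4333 for RUNX1, 204 for Med12 and 222 for p300.

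**Figure D4:**
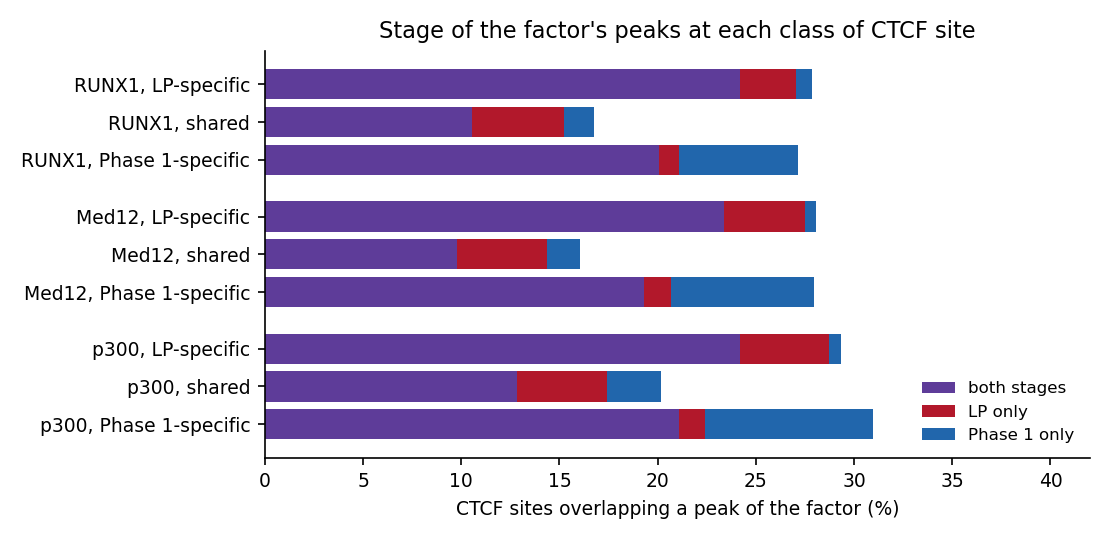
Stacked bars give the percentage of each class of CTCF site that overlapped a peak of RUNX1, Med12 or p300 in both stages (purple), in LP only (red) or in Phase 1 only (blue). At LP-specific sites the purple part is 24.2% for RUNX1, 23.4% for Med12 and 24.2% for p300, and the red part is 2.86%, 4.13% and 4.52%.

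All 3 factors were in LP and none in Phase 1 at 55 LP-specific sites (1.27%), a share like that of shared sites (1.32%), and 2 Phase 1-specific sites had this pattern. The 5 strongest were the Mir181c site, chr19:47168218-47168618 near Neurl1a (score 231.0), chr12:77000984-77001384 (101.8), in an intron of the noncoding Gm35041 and 38.9 kb from Max, which encodes the partner of Myc, chr9:40836680-40837080 (95.1) in a B3 repeat, and chr8:120572565-120572965 (90.3) in coding exon 11 of Gse1. Each had a Phase 1 CTCF centre within 2.26 kb. The opposite pattern, at least 2 factors in Phase 1 only, led with chr8:95852205-95852605 (score 34.5), in an intron of the amino acid transporter gene Slc38a7, which was the single site with all 3 in Phase 1 and none in LP. After it came Hps5 (chr7:46795322-46795722, 29.8), Rras2 (chr7:114116975-114117375, 28.6), Plekhg3 (chr12:76533565-76533965, 27.2) and the kinase gene Pim3 (chr15:88863679-88864079, 24.6), at promoters or within 1.69 kb of a start.

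Lists from cells with guides gave another view of Med12 in Phase 1. The sgCont and sgCbfb Med12 lists held 19053 and 18099 peaks, against 39132 in Phase 1 cells without guides. The paper states that ChIP-seq of cells deficient in Cbfb, Ctcf or Med12 used minimal cell numbers and was noisier than usual. Of 1012 LP-specific sites with Med12 in both stages, 821 (81.1%) had it in the sgCont list and 693 (68.5%) in the sgCbfb list, from cells whose RUNX partner Cbfb was targeted. Of the 179 sites with Med12 in LP only, 25 (14.0%, interval 9.64% to 19.8%) had it in sgCont and 41 (22.9%, 17.4% to 29.6%) in sgCbfb. Over all LP CTCF peaks these shares were 76.6% and 72.1% with Med12 in both stages, and 14.1% and 44.3% with Med12 in LP only. The RUNX1 lists of cells with guides held 874 to 2094 peaks and reached few of these sites: 89 LP-specific sites (2.05%, against 0.635% of all LP CTCF peaks) overlapped sgCont RUNX1 in LP and 79 (1.82%, against 0.474%) overlapped sgCTCF RUNX1, all of them among the 1048 with RUNX1 in both stages. Notch1-IC in LP was listed at 99 LP-specific sites (2.28%, against 0.617% of all LP CTCF peaks and 2.17% of Phase 1-specific sites). The Phase 1 Notch1-IC list was much shorter, with 152 peaks against 1585 in LP, although the stroma of LP cells carried no DLL4. Whether the LP peaks mark Notch1-IC was not tested. The paper counts more Phase 1 Notch1-IC peaks than the Phase 1 list used here. That list reached 6 LP-specific sites (0.138%, against 0.0485% of all LP CTCF peaks and 0.401% of Phase 1-specific sites).

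Sequence split the LP-specific sites. The 31.8% with the CTCF string (interval 30.4% to 33.2%) compared with 44.6% of shared sites (odds ratio 0.578, Fisher's exact test, adjusted p = 2.56e-60) and with 33.9% of Phase 1-specific sites (odds ratio 0.910, adjusted p = 0.0524). The latter result moved with the setting (Fisher's exact tests), to 0.832 (adjusted p = 1.04e-04) when 1 mismatch was allowed and to 1.05 (adjusted p = 0.402) at a score of at least 30. It also passed the threshold with nearby CTCF of the other stage left out and with equal numbers of top-scored peaks. With 1 mismatch, 64.7% of LP-specific and 83.0% of shared sites matched.

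Sites with the string were mostly repeats without RUNX1, Med12 or p300, and sites without it held nearly all peaks of these factors. Of the 1377 LP-specific sites with the string, 71.7% (interval 69.2% to 74.0%) were annotated as B2 repeat, 1.96% as promoter, and 3.56% overlapped LP RUNX1, 3.34% LP Med12 and 3.85% LP p300. Of the 2955 without it, 9.04% were B2 and 19.3% promoter, and 38.0%, 38.7% and 40.3% overlapped the 3 factors. Their median GC content was 53.0%, against 44.5% with the string, and they had a mean of 6.86 CG dinucleotides in 200 bp, against 2.26. The split was also present at shared sites, where LP RUNX1 overlapped 8.76% of those with the string and 20.4% of those without. It was wider at Phase 1-specific sites, where LP RUNX1 overlapped 3.79% of those with the string and 29.9% of those without. There LP Med12 overlapped 3.48% and 29.5%, and LP p300 3.48% and 32.1%. Of the Phase 1-specific sites with the string, 70.4% were B2 repeats. The split was thus not particular to LP-specific sites.

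**Figure D5:**
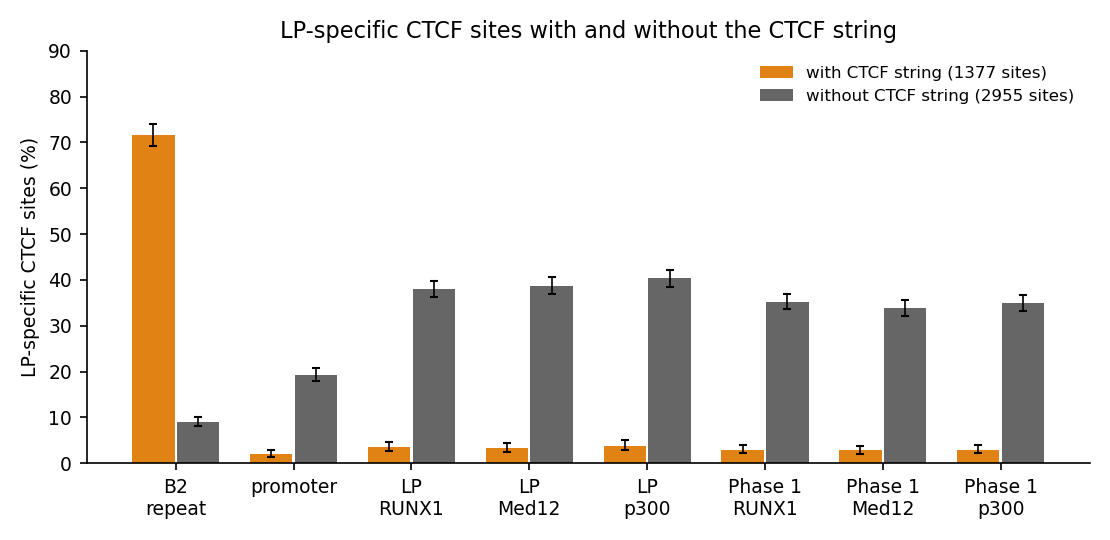
Bars give the percentage of LP-specific CTCF sites with (orange, 1377 sites) and without (grey, 2955 sites) the CTCF string that were annotated as B2 repeat or promoter or overlapped a factor peak, with 95% Wilson intervals as error bars. B2 repeats make up 71.7% and 9.04%, and LP RUNX1 overlaps 3.56% and 38.0%.

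The split was seen from the factors as well. The 1111 LP-specific sites with all 3 factors in LP were promoters in 40% of cases and B2 in 1.98%, held the string in 3.78%, had a median GC content of 58.0%, and had a median focus ratio of 0.708. The 3032 with none were promoters in 3.79% and B2 in 40.3%, held the string in 43.5%, and had a median GC content of 47.0% and a focus ratio of 0.851. Shared and Phase 1-specific sites were not divided by factors in this way. The contrast therefore cannot be called particular to LP-specific sites. Of the 1111, 621 (55.9%) were in the lowest score class and 416 (37.4%) in the second. As a share of a class's LP-specific sites the group was highest in the second class (50.8%, against 20.2% in the lowest), where RUNX1 overlapped 52.7% of LP-specific and 10.2% of shared sites and promoters made up 32.1% and 6.84%.

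The RUNX strings TGTGGTT and TGCGGTT were found at 16.1% of LP-specific sites (flanks 5.76%), 12.4% of all LP CTCF peaks and 24.5% of Phase 1-specific sites. Of 698 LP-specific sites with a RUNX string, 458 were B2 repeats, and RUNX1 was listed in LP at 3.28% of those 458. Outside B2 repeats, 240 sites had a RUNX string and 55.4% of them had RUNX1 in LP, against 37.2% of all 3078 sites outside B2. Shared sites in B2 with a RUNX string had RUNX1 in LP at 3.98%. Outside B2, shared sites had it at 26.5% with a RUNX string, against 19.1% in all. For Phase 1-specific sites these values were 3.07%, 45.3% and 29.2%. The direction was therefore not particular to LP-specific sites. The PU.1 string GAGGAAGT was found at 3.49% of LP-specific sites (flanks 1.11%) and 1.5% of shared sites, and the AP-1 strings TGACTCA and TGAGTCA at 3.44% (flanks 3.58%). A string is a match of letters and not a measured binding site.

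By annotation, promoters and B2 repeats were both over the level of shared sites before score was taken into account. Phase 1-specific sites were 10.9% promoter and 31.1% B2. Promoters were 596 LP-specific sites (13.8%, against 7.98% of shared and 8.53% of all; odds ratio 1.84, Fisher's exact test, adjusted p = 1.63e-33). B2 repeats were 1254 sites (28.9%, against 24.8% of shared and 25.2% of all; odds ratio 1.23, Fisher's exact test, adjusted p = 7.09e-09). Pooled within score classes the promoter odds ratio was 3.69 and that of B2 turned round (0.55, past the threshold), while at a score of at least 30 they were 1.47 and 1.67. The classes differed. Promoters were less frequent at LP-specific than at shared sites in the fourth (6.54% against 7.09%) and highest class (7.27% against 12.8%). B2 was more frequent at LP-specific sites in the same classes (27.1% against 15.2%, and 14.5% against 6.84%) and close in the middle class (26.9% against 26.6%). B2 made up 46.6% of shared sites in the lowest class and 32.9% of LP-specific ones there. Reads that mapped to several places were allowed by the authors up to a limit, and the part of this in peaks within repeats was not tested. Introns held 1820 LP-specific sites (42%, against 43.4% of all LP CTCF peaks) and intergenic sequence 1585 (36.6%, against 41.3% of all). Exons held 144 (3.32%, against 2.03% of shared and 2.15% of all) and MaLR long terminal repeats 133 (3.07%, against 1.61% and 1.74%).

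Nearest starts were assigned to 4325 sites and named 3643 genes, of which 3115 had 1 LP-specific site and 109 had 3 or more. Zc3h12a, which encodes the RNase Regnase-1, led with 6 sites of 15 LP CTCF peaks. One was strong (chr4:125118284-125118684, score 100.3, in its UTR, with all 3 factors in both stages), and the others scored 15.3 to 28.4. The following genes were Mir6388 (6), the noncoding 9430078K24Rik (6), Mir7094-1 (6), Gm34637 (5), Rreb1 (5), BC039966 (5), Btbd11 (5), Zfp507 (5) and Rprl1 (5). The sites assigned to Mir6388 and Mir7094-1 lie among the variable gene segments of the immunoglobulin heavy chain on chromosome 12, and those of Rprl1 among the kappa segments on chromosome 6.

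These loci were then counted, a choice made after the gene list was seen. The heavy chain segments (chr12:113254830-116010093) held 14 LP-specific sites of 123 LP CTCF peaks (11.4%, interval 6.90% to 18.2%), with 2 Phase 1-specific sites, and the kappa segments (chr6:67555497-70726966) held 7 of 30 (23.3%, 11.8% to 40.9%), with none Phase 1-specific. The T cell receptor alpha and delta segments on chromosome 14 held 6 of 74 (8.11%), with 5 Phase 1-specific sites. The median scores of the LP-specific sites in these 3 loci were 20.1, 17.7 and 17.8. The T cell receptor beta segments held 1 of 26 (3.85%), and the lambda and T cell receptor gamma segments held 0 of 4 each. Over the chromosomes with more than 8 peaks, the share of LP-specific sites ran from 8.20% on chromosome 6 (200 of 2439) to 11.3% on chromosome 12 (211 of 1862), where it was 11.3% outside the heavy chain segments as well.

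Chosen lists of genes of blood lineages, the Notch pathway and the factors studied were read with 50 kb on each side. T-lineage genes had 12 LP-specific sites of 142 LP CTCF peaks (8.45%), Notch pathway genes 16 of 155 (10.3%), stem and progenitor genes 12 of 125 (9.60%), myeloid genes 9 of 93 (9.68%), B-lineage genes 10 of 99 (10.1%), RUNX and coactivator genes 5 of 81 (6.17%), and CTCF and cohesin genes 8 of 105 (7.62%). Each interval included the 9.55% of the whole list. T-lineage windows with an LP-specific site were those of 15 of 26 genes, 1 site each, among them Bcl11b, Lef1, Ptcra, Rag1, Cd4 and the neighbouring Cd3d, Cd3e and Cd3g, which shared 1.

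The strongest site near each list's genes often lay at another gene. For T-lineage genes these were the Spns1 site, which is close to Lat, an intron of Cnpy3 next to Ptcra (chr17:46751440-46751840, score 51.0), and an intron of Usp5 near Cd4 (chr6:124828139-124828539, 45.9, p300 in both stages). Notch pathway genes had a site in the 3′ UTR of Sec16a near Notch1 (chr2:26410069-26410469, 92.5), the B2 site in Ppt2 near Notch4 (70.2) and the Timm50 promoter near Dll3 (34.4). The latter, with all 3 factors in both stages, differed from the former pair, which had none.

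Some progenitor and myeloid genes had sites within the gene or close before its start. At Lyl1, which encodes a basic helix-loop-helix factor of blood progenitors, chr8:84704403-84704803 (score 186.2) lay at the end of the gene, held the string and none of the factors, and was 4.66 kb from a Phase 1 CTCF centre. The promoter of Nfe2, a bZIP factor of the erythroid and platelet lineages, carried a site at chr15:103258327-103258727 (47.9) with all 3 factors in both stages. The B2 site near Flt3 (32.6) lay at another gene, 1.71 kb from the start of Pan3, and had none of the factors. At Spi1, which encodes PU.1, the promoter site chr2:91096403-91096803 (54.0) had all 3 in both stages, while the B2 site in intron 2 (51.4) had none. Cebpa, a myeloid factor, had 3 LP-specific sites among 7 LP CTCF peaks in its window, led by chr7:35117981-35118381 (90.6), 1.11 kb before its start and without the factors.

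Among B-lineage genes, Pax5 had 3 LP-specific sites of 10 LP CTCF peaks and Ebf1, the gene this line lacks, had 2 of 9. Other sites of that list were at Rmrp near Cd72 (chr4:43492630-43493030, 55.6, all 3 factors in both stages) and near Ikzf3 (chr11:98455445-98455845, 48.4, string and none of the factors). RUNX and coactivator genes had the Supt3 promoter inside Runx2 (chr17:44776832-44777232, 44.8, all 3 in both stages), the B2 site before Ep300 (26.2) and a site 2.58 kb before Runx3 (chr4:135117861-135118261, 23.4). CTCF and cohesin genes had the Igfbp4 site near Top2a, an intron of Pprc1 near Ldb1 (chr19:46057214-46057614, 61.3) and the Slc25a29 promoter near Yy1 (chr12:108835660-108836060, 34.1, all 3 in both stages).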

How the data were processed

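The authors aligned reads to mm10 with Bowtie 1.1.1, called peaks with HOMER in factor mode against a matched control, kept peaks reproducible between both replicates, and deposited 1 annotated list per group (17 lists, 2 replicates each) with the normalized peak score, at least 15. For CTCF the deposited focus ratio, a fraction, was also read. Input samples had no list of their own. LP CTCF peaks were classed by 1 bp overlap with Phase 1 CTCF peaks (Python 3.11.15, pandas 2.3.3, scipy 1.17.1, statsmodels 0.14.6), after the overlap, string search and odds ratios were tested on simulated data. The 13 comparisons used two-sided Fisher's exact tests on site counts, sample odds ratios and Benjamini-Hochberg adjustment at 0.05, and shares have 95% Wilson intervals. Score-matched values pooled 5 score classes by Mantel-Haenszel. Sequence came from GRCm38.p6 with pysam 0.24.0, gene positions from GENCODE M21, and nearest genes from the lists' transcript accessions.

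The sites and the gene lists were chosen with earlier results of these data known. Named sites were the 10 strongest, the 5 strongest with all 3 factors in LP and none in Phase 1, the 5 strongest with at least 2 factors in Phase 1 only, up to 3 per gene list within 50 kb, the 10 genes nearest to most sites, the smallest gaps and overlaps, and the chromosomes with the extreme shares. Alternatives were a score of at least 30, other definitions of specific sites, promoters left out, 50% coverage, and other string windows. One site's place in a gene list is not reported here.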

Additional observations from a re-analysis of the deposited data

How the results depend on the processing

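The number of LP-specific sites was 2297 when both CTCF lists were held to a score of at least 30. It was 980 when that minimum was applied to LP peaks against all Phase 1 peaks, so 3353 of 4333 sites depend on weak LP peaks. Most of the 2297 thus overlapped a Phase 1 CTCF peak scored under 30 and are shared sites in the main definition. Across the alternatives of the 13 tests, 75 of 86 values kept their direction and side of the threshold. For RUNX1 in 1 stage against shared sites, the odds ratio was 6.24 on score classes, 0.906 without promoters and 0.584 with 50% of the CTCF peak covered. For Med12 in 1 stage it was 1.65 at a score of at least 30 and 1.36 with 50% coverage. The string against Phase 1-specific sites gave 1.05 at a score of at least 30, 0.895 with no CTCF centre of the other stage within 1 kb, 0.843 with equal numbers of top-scored peaks, 0.832 with 1 mismatch, and 0.891 with no CTCF centre within 5 kb, an alternative chosen after seeing the data. B2 annotation gave 0.55 on score classes. In each case the cause was not tested. No paired analysis was possible because replicates were combined in each list, and for the same reason no replicate could be left out. The depth of each list was not compared, which limits what can be said of sites near the score minimum of 15.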
